A study of Arabidopsis thaliana with 14 samples.

Results

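The genes described here were the members of 2 families that carry the primary auxin response in Arabidopsis, the Aux/IAA repressors and the AUXIN RESPONSE FACTORs (ARFs). They were chosen by locus: 29 Aux/IAA genes and 15 ARF genes, making 44 members among 27444 nuclear protein-coding genes. The ARF genes on the list were ARF1 to ARF11 and ARF16 to ARF19, and 8 further ARF genes were counted apart. For each member, peaks were taken from 10 lists of binding peaks of type-B ARABIDOPSIS RESPONSE REGULATORs (B-ARRs) whenever the summit fell inside the gene or within 1.5 kb of it. A member was called bound in a list when such a peak had a peak score of at least 16. The peak score was the deposited −log10 p-value of the peak caller.

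Aux/IAA proteins are short-lived repressors. They sit on ARF transcription factors and recruit TOPLESS (TPL) family co-repressors through a short N-terminal domain. Auxin joins the Aux/IAA degron to the TIR1/AFB receptors, which send the repressor to the proteasome and release the ARF. ARFs bind auxin response elements, of which TGTCTC is the classical form, and many Aux/IAA genes are themselves switched on by auxin within minutes. B-ARRs are the DNA-binding regulators at the end of the cytokinin phosphorelay. Cytokinin and auxin act against each other at the root meristem, where SHY2 (IAA3) is a known meeting point of both pathways.

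Each list came from chromatin immunoprecipitation sequencing with an anti-GFP antibody in whole Arabidopsis seedlings 3 days old. The tagged proteins were ARR1, ARR10, ARR12 and ARR14 carrying a Ypet tag (a yellow fluorescent protein), introduced by recombineering so that neighbouring regulatory sequence was kept. ARR1_m, ARR10_m and ARR12_m were mock treated with DMSO for 4 h, and ARR1_BA, ARR10_BA and ARR12_BA were treated with 10 µM of the cytokinin 6-benzylaminopurine (6-BA) for 4 h. ARR1_BA3d and ARR14_BA3d had 10 µM 6-BA for 3 days. A further ARR1 mock list came from etiolated seedlings, whereas the others came from seedlings grown in long days. ARR1∆DDK lacks the receiver domain. In the study's methods it is a fusion to the glucocorticoid receptor driven by the constitutive 35S promoter, and its seedlings had 10 µM dexamethasone (Dex) for 4 h. Its record names an ARR1-Ypet line in one label and ∆DDK in its title. Every condition had 1 list, in which the study had already combined at least 2 replicates, so no spread between replicates could be computed and no test was run. The comparisons below are of single lists.

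The lists differed in reach. They held 1513 to 11499 peaks, of which 73 (ARR1_m) to 9913 (ARR14_BA3d) scored at least 16. The lowest deposited score was 4.88 in ARR1_m but 20.6 in the etiolated ARR1 mock list, 28.3 in ARR14_BA3d and 31.2 in ARR1∆DDK. Read depth was unknown, and a −log10 p-value grows with it, so ranks within a list are given beside scores. The ARR12 lists carried a doubt about their labels: when compared with the study's own target tables, the list labelled ARR12 6-BA matched the mock targets and the list labelled ARR12 mock matched the 6-BA targets. They are therefore called the list labelled ARR12_m and the list labelled ARR12_BA. Both ARR10 lists also covered the ARR1 locus densely, with peaks over 65.2% and 66.3% of a 50 kb window around ARR1. That share was 51.1% to 68.3% in the ARR1-Ypet lists, and 3.16% to 13.4% in the ARR12, ARR14 and ARR1∆DDK lists. Around ARR10 itself the ARR10 lists covered only 8.11% and 5.38%, whereas the ARR12 lists covered 90.7% and 91.3% around ARR12, and ARR14_BA3d 29.4% around ARR14. Which line the ARR10 libraries came from could not be told from the lists, so ARR10 stands below for the label of a list. The part of this in the likeness of ARR10 and ARR1 lists was not tested. No member lay near a tagged gene, the closest being IAA29 at 136 kb from ARR10 and IAA26 at 141 kb from ARR1.

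The sites at which the best-ranked members most often had a peak are shown first, because the same positions return throughout the results. Each was read from the TAIR10 reference on the strand of the member, 5′ to 3′, around the median summit of the lists that had a peak there. Stretches of 30 bases are given where an annotated exon covers the summit, and otherwise up to 101 bases ending at the nearest exon. Capitals mark the B-ARR hexamer of the study (AGAT, then any base but G, then C or T) or the auxin response element TGTCTC, on either strand. None of the matches shown overlap. The windows are chr3:1291135-1291235 (minus strand) for IAA16, chr3:5263820-5263920 (plus) for IAA19, chr5:26253350-26253379 (plus) for IAA9, chr4:14141083-14141183 (plus) for IAA11, chr3:8181921-8181950 (minus) for IAA2 and chr5:17550120-17550178 (plus) for IAA4. Those of the ARFs are chr1:6627803-6627832 (minus) in the 3′ UTR of ARF19, chr1:6633100-6633129 (minus) at the ARF19 start, chr1:10691844-10691944 (minus) for ARF6 and chr5:14629330-14629430 (plus) for ARF8. The last, chr1:1130188-1130288 (minus) for IAA3, was added after its values were seen, since it held the highest score of a member outside the best-ranked ones.
IAA16: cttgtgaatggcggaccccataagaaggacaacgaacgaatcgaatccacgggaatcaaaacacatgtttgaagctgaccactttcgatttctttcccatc
IAA19: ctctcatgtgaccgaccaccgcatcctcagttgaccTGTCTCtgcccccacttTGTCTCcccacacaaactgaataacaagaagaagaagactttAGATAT
IAA9: attcctcaatcacattatcatcacatagag
IAA11: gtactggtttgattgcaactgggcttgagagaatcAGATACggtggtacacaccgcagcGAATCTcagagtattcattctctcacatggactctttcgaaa
IAA2: ccacatgggcggcctcaagcttcgtgtccc
IAA4: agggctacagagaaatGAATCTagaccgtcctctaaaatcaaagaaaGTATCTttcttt
ARF19 3′ UTR: ccacgtgtccattcccctgacactttgcgg
ARF19 start: gtatccgatcccaatcggcttAAATCTcaa
ARF6: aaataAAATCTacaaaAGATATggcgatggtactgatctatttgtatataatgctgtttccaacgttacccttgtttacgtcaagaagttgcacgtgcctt
ARF8: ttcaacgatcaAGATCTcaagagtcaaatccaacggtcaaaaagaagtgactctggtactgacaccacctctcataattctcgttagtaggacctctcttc
IAA3: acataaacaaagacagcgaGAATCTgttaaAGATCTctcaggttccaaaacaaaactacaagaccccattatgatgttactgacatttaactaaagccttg

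Most members of both families were bound somewhere. A peak of score 16 or more lay at 39 of 44 members in at least 1 list (88.6%, against 54.8% of all protein-coding genes), and 18 members (40.9%, against 18.4%) were bound in 5 lists or more. Those 18 were 13 Aux/IAA and 5 ARF genes. IAA10, IAA14, IAA33, ARF1 and ARF4 were bound in no list, and IAA33 (AT5G57420), ARF1 (AT1G59750) and ARF4 (AT5G60450) had no deposited peak of any score. No summit lay within reach of more than 1 member, so no member owed its call to another.

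**Figure D1:**
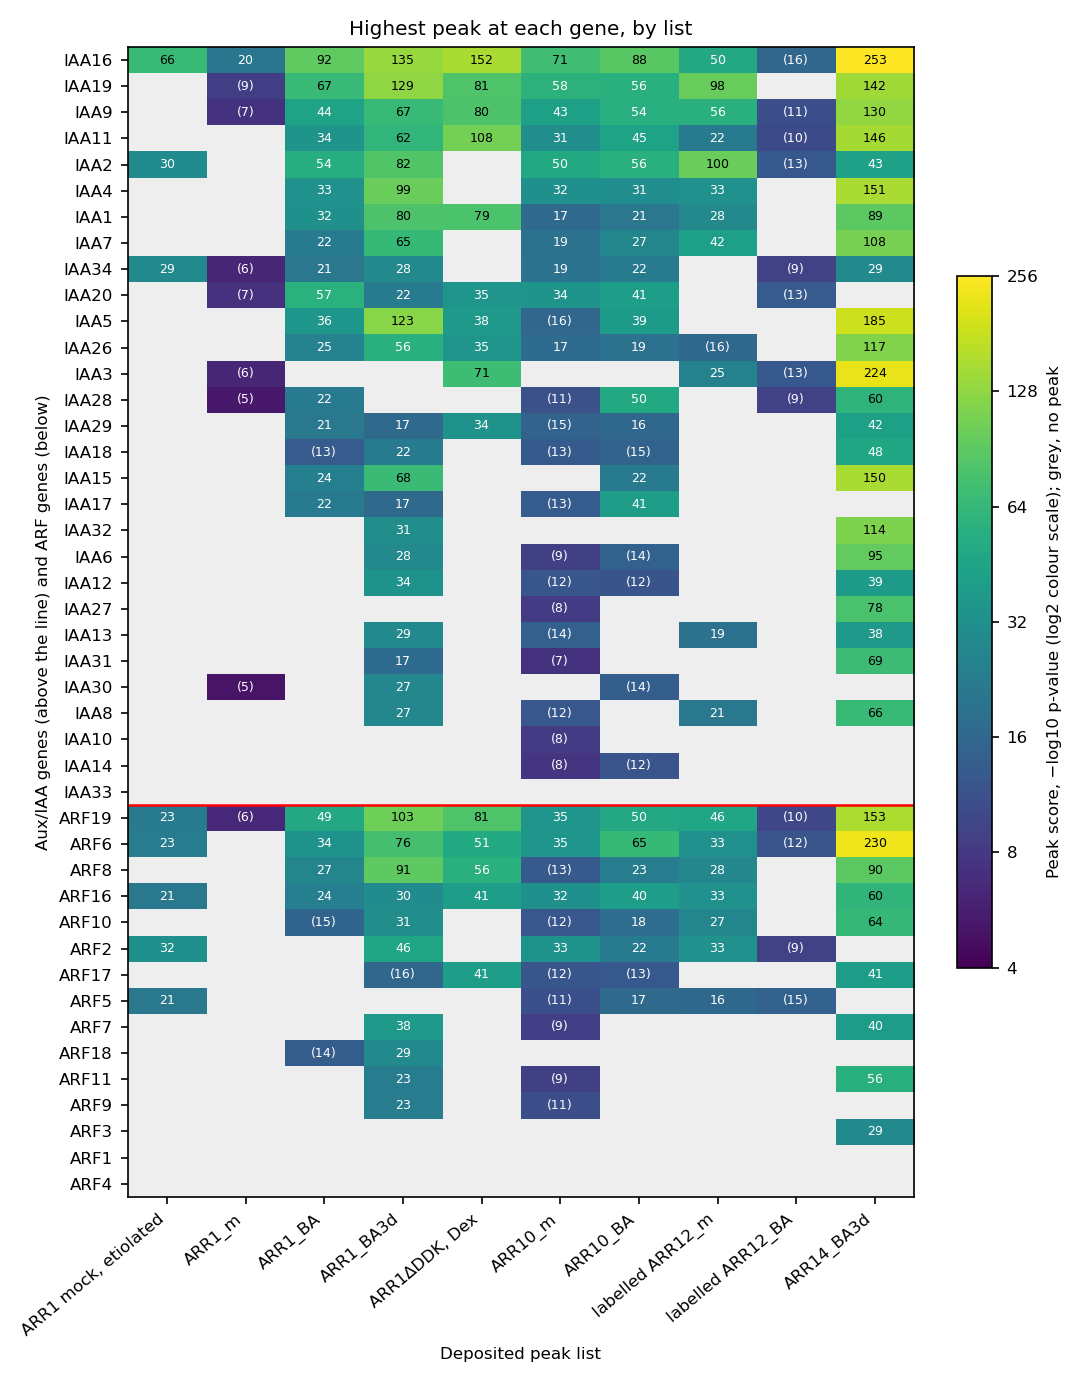
Highest peak score (−log10 p-value, log2 colour scale) at each of the 44 members (vertical axis) in each of the 10 lists (horizontal axis), with Aux/IAA genes above the red line and ARF genes below, each ordered by median rank. Scores under 16 are in parentheses and grey cells have no deposited peak. IAA16 and ARF19 have a peak of some score in all 10 lists, and IAA33, ARF1 and ARF4 in none.

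The count of bound members largely followed the number of peaks that scored at least 16. In the ARR1 series, 1 of 44 members was bound in ARR1_m, where 0.415% of all protein-coding genes were bound. That share was 114 genes. The study counts far more targets for its ARR1 mock sample under the same minimum score and distance. The reason for this shortfall of the deposited list was not tested, and every comparison of counts with ARR1_m carries that doubt. In ARR1_BA 20 members were bound, 16 Aux/IAA and 4 ARF genes (20.4% of all genes), and in ARR1_BA3d 33, made up of 23 and 10 (39.5%). The etiolated ARR1 mock list held 3 Aux/IAA and 5 ARF genes (6.68%). In the ARR1∆DDK list 10 Aux/IAA and 5 ARF genes were bound (14.3%).

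For ARR10, 11 Aux/IAA and 4 ARF genes were bound in ARR10_m (19.0% of all protein-coding genes) and 16 and 7 in ARR10_BA (24.8%). The list labelled ARR12_m held 11 Aux/IAA and 7 ARF genes (24.2%) and the list labelled ARR12_BA none of either (3.26%). With the labels exchanged, the ARR12 counts become 0 members for mock and 18 for 6-BA. ARR14_BA3d held 23 Aux/IAA and 9 ARF genes (43.8%). The share of Aux/IAA genes bound was above the genome-wide share in every list but the one labelled ARR12_BA, and that of ARF genes in every list but that one and ARR1_m.

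**Figure D2:**
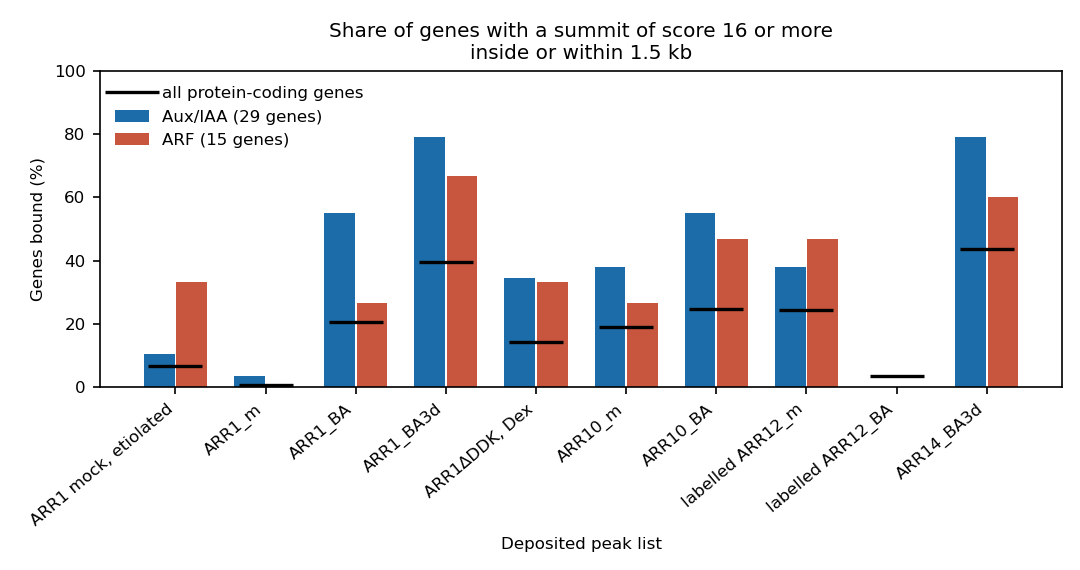
Share of genes bound (per cent, vertical axis) in each list (horizontal axis) for the 29 Aux/IAA genes (blue bars) and the 15 ARF genes (red bars), with all protein-coding genes as a black line. The share of Aux/IAA genes reaches 79.3% in ARR1_BA3d and in ARR14_BA3d, where 39.5% and 43.8% of all genes were bound.

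The minimum score set much of the mock counts. With every deposited peak counted, 9 members had a peak in ARR1_m (15.2% of all protein-coding genes), 35 in ARR10_m (45.8%) and 12 in the list labelled ARR12_BA (15.2%). For ARR10 the order of the lists then turned, with 29 members in ARR10_BA (34.8%). The lists were then made equal by taking the 1513 highest peaks of each, the length of the shortest. By that measure the ARR1 lists held 8 members in etiolated mock (6.68% of all protein-coding genes), 7 in ARR1_m (7.59%), 11 in ARR1_BA (7.33%) and 13 in ARR1_BA3d (7.22%). ARR1∆DDK held 9 (7.56%), ARR10_m 11 (7.39%) and ARR10_BA 11 (6.82%). The list labelled ARR12_m held 10 (7.54%), that labelled ARR12_BA 5 (6.59%) and ARR14_BA3d 9 (7.48%). Among peaks of equal number, the members bound thus ranged from 5 to 13 of 44, or 11.4% to 29.5%, against 0 to 33 of 44 at the fixed minimum score.

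The families differ in gene length, with a median of 1740 bp for Aux/IAA genes, 4530 bp for ARF genes and 2078 bp for all protein-coding genes, and a longer gene offers more room for a summit. Counting only summits within 1.5 kb of the transcription start site (TSS) removes that difference. By this rule 2 Aux/IAA and 4 ARF genes were bound in the etiolated ARR1 mock list (4.89% of all protein-coding genes) and 12 and 3 in ARR1_BA (14.1%). In ARR1_BA3d 20 Aux/IAA and 8 ARF genes were bound (29.3%), in ARR10_BA 11 and 6 (17.6%), and in ARR14_BA3d 19 and 9 (33.4%). By both rules a larger share of the ARF genes than of the Aux/IAA genes was bound in the etiolated list, and a smaller share in ARR1_BA, ARR1_BA3d and ARR14_BA3d. The order of the families turned with the rule in ARR10_BA, in ARR1∆DDK and in the list labelled ARR12_m. In ARR1∆DDK the shares were 34.5% of Aux/IAA and 33.3% of ARF genes, and 27.6% and 33.3% by the TSS rule (10.5% of all genes). In the list labelled ARR12_m they were 37.9% and 46.7%, and 34.5% and 26.7% by the TSS rule (17.1%).

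Among Aux/IAA genes, IAA16 (AT3G04730) was the best-ranked member. It is a canonical repressor of the IAA7 clade, known from a dominant mutant with reduced auxin and abscisic acid responses. Its peak score was 65.6 in the etiolated ARR1 mock list, 20.5 in ARR1_m, 92.5 in ARR1_BA, 135 in ARR1_BA3d and 152 in ARR1∆DDK. It was 71.0 in ARR10_m, 87.6 in ARR10_BA, 49.6 in the list labelled ARR12_m, 15.9 in that labelled ARR12_BA and 253 in ARR14_BA3d. IAA16 was thus bound in 9 lists, and within them its peak ranked in the highest 1.19% of deposited peaks in 7, the exceptions being ARR1∆DDK (3.50%) and the list labelled ARR12_m (8.18%). It was the only member bound in ARR1_m, and there through a peak in its 3′ UTR, since its upstream peak scored 13.8 in that list.

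IAA19 (AT3G15540, MSG2), a repressor in hypocotyl tropisms, had no peak in the etiolated list or in the list labelled ARR12_BA. Its score was 8.68 in ARR1_m, 67.0 in ARR1_BA, 129 in ARR1_BA3d, 81.1 in ARR1∆DDK, 58.4 in ARR10_m, 56.1 in ARR10_BA, 98.0 in the list labelled ARR12_m and 142 in ARR14_BA3d. It ranked in the highest 0.633% of peaks in the list labelled ARR12_m and 0.791% in ARR10_m, but 19.3% in ARR1∆DDK and 13.2% in ARR14_BA3d. At IAA19, the scores of 142 in ARR14_BA3d and 81.1 in ARR1∆DDK therefore did not carry a rank as near the top. IAA9 (AT5G65670) scored 7.41 in ARR1_m, 44.4 in ARR1_BA, 66.7 in ARR1_BA3d, 80.2 in ARR1∆DDK, 42.5 in ARR10_m, 54.4 in ARR10_BA, 56.1 in the list labelled ARR12_m, 11.0 in that labelled ARR12_BA and 130 in ARR14_BA3d, with no peak in the etiolated list. These 9 peaks were all at 1 site by the IAA9 start. Its median summit, upstream of IAA9, fell in an annotated exon. In ARR1_m the nearest gene to that peak was AT5G09425, which is not protein-coding.

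IAA11 (AT4G28640) had no peak in the etiolated list or ARR1_m. It scored 34.5 in ARR1_BA, 61.6 in ARR1_BA3d, 108 in ARR1∆DDK, 31.3 in ARR10_m, 45.0 in ARR10_BA, 22.0 in the list labelled ARR12_m, 10.3 in that labelled ARR12_BA and 146 in ARR14_BA3d. Its main site lay 930 bp upstream of IAA11 but only 79 bp from the TSS of the neighbouring gene ABCB23, so the call cannot be assigned to IAA11 alone. IAA2 (AT3G23030), an early auxin-induced gene, scored 29.5 in the etiolated list, 53.5 in ARR1_BA, 82.1 in ARR1_BA3d, 50.3 in ARR10_m, 56.4 in ARR10_BA, 99.5 in the list labelled ARR12_m, 12.6 in that labelled ARR12_BA and 43.1 in ARR14_BA3d. It had no peak in ARR1_m or ARR1∆DDK. Its rank was 70.8% in ARR14_BA3d and 0.583% in the list labelled ARR12_m, but these are peaks at different sites, 856 bp upstream and 132 bp downstream of the TSS. IAA4 (AT5G43700) scored 33.0 in ARR1_BA, 99.3 in ARR1_BA3d, 32.0 in ARR10_m, 30.6 in ARR10_BA, 32.9 in the list labelled ARR12_m and 151 in ARR14_BA3d, and had no peak in the remaining 4 lists.

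The other Aux/IAA genes were bound in 6 or fewer lists, apart from IAA1 with 7. The scores of bound peaks were 16.6 to 89.2 at IAA1. IAA3 (AT1G04240, SHY2) was bound in 3 lists at 3 different positions. It scored 224 in ARR14_BA3d, 549 bp upstream of the TSS, 70.6 in ARR1∆DDK, 4 bp upstream, and 24.9 in the list labelled ARR12_m, 181 bp downstream of the TSS in a coding exon. At the upstream position lower peaks were deposited in ARR1_m and in the list labelled ARR12_BA, where the highest IAA3 scores were 6.21 and 12.6. No peak of any score lay at IAA3 in ARR1_BA, ARR1_BA3d, ARR10_m, ARR10_BA or the etiolated list.

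IAA5 (AT1G15580), a member of the IAA19 clade, was bound in 5 lists with scores from 35.8 to 185. IAA7 (AT3G23050, AXR2) was bound in 6 lists with scores of 18.8 to 108, and its most frequent site, bound in 5 lists, was in its 3′ UTR. IAA17 (AT1G04250, AXR3), a near relative of IAA7 known for dominant auxin-resistant alleles, was bound in 3 lists with scores of 16.9 to 41.1. IAA27 (AT4G29080) was bound only in ARR14_BA3d (77.9) and IAA30 only in ARR1_BA3d (27.4). The single peak of IAA10 (AT1G04100) was at 8.34 in ARR10_m, and both peaks of IAA14 were below 16, at 7.51 in ARR10_m and 11.9 in ARR10_BA. IAA14 (AT4G14550, SLR), the repressor of lateral root founding, therefore stood apart from its clade member IAA16.

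Among the remaining Aux/IAA genes, IAA26, a nuclear repressor also known as PAP1, was bound in 6 lists with scores of 17.2 to 117, and IAA34 in 6 with scores of 19.4 to 28.9. IAA20 was bound in 5 lists (22.0 to 57.4), IAA29 in 5 (16.1 to 42.4) and IAA15 in 4 (22.3 to 150). IAA8, IAA13 and IAA28 were bound in 3 lists each, with scores between 19.0 and 66.5. IAA12 (BODENLOS), the repressor partner of ARF5 in the embryo, was bound in 2 lists, as were IAA6, IAA18, IAA31 and IAA32, whose highest scores were 48.1 to 114. Several calls lay near the minimum. The nearest inside it were ARF5 in the list labelled ARR12_m and IAA29 in ARR10_BA, both at 16.1, then IAA1 in ARR10_m at 16.6. The nearest outside it were IAA26 in the list labelled ARR12_m at 15.98, IAA16 in that labelled ARR12_BA at 15.9 and ARF17 in ARR1_BA3d at 15.86.

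Clades differed in how often their genes were bound. Over all pairs of a protein-coding gene and a list, 53862 of 274440 were bound (19.6%), and every clade was above that share. Over its own pairs, the IAA1 to IAA4 clade was bound in 23 of 40 (57.5%), and the clades of IAA5, IAA6, IAA15 and IAA19 and of IAA7, IAA14, IAA16 and IAA17 in 18 of 40 each (45.0%). The clades of IAA8, IAA9 and IAA27 and of IAA18, IAA26 and IAA28 were bound in 11 of 30 each (36.7%), IAA29 in 5 of 10 and the IAA10 to IAA13 clade in 12 of 40. The lowest share was 16 of 60 (26.7%) in IAA20 and IAA30 to IAA34, proteins that lack all or part of the degron and so escape the usual auxin-driven turnover. IAA20 and IAA34, bound in 5 and 6 lists, gave 11 of those 16.

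Among ARF genes, ARF19 (AT1G19220) had a peak in every list. ARF19 and ARF7 are the activators that drive lateral root formation. The ARF19 score was 22.6 in the etiolated list, 6.45 in ARR1_m, 49.5 in ARR1_BA, 103 in ARR1_BA3d, 81.1 in ARR1∆DDK, 34.8 in ARR10_m, 49.5 in ARR10_BA, 46.1 in the list labelled ARR12_m, 9.62 in that labelled ARR12_BA and 153 in ARR14_BA3d. It was thus below 16 in 2 lists, and its rank was between 3.12% in ARR1_BA3d and 80.1% in the etiolated list. ARF7 (AT5G20730, NPH4), its close relative, was bound only in ARR1_BA3d and ARR14_BA3d, with scores of 37.5 and 39.7.

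ARF6 and ARF8 are activators that act together in flower maturation and are both cleaved through miR167. ARF6 (AT1G30330) scored 23.3 in the etiolated list, 34.0 in ARR1_BA, 75.6 in ARR1_BA3d, 50.9 in ARR1∆DDK, 34.8 in ARR10_m, 64.9 in ARR10_BA, 32.9 in the list labelled ARR12_m, 12.0 in that labelled ARR12_BA and 230 in ARR14_BA3d, and had no peak in ARR1_m. ARF8 (AT5G37020) scored 26.7 in ARR1_BA, 91.4 in ARR1_BA3d, 56.1 in ARR1∆DDK, 13.1 in ARR10_m, 23.5 in ARR10_BA, 27.6 in the list labelled ARR12_m and 90.4 in ARR14_BA3d. Of the 7 lists with a peak at both genes, ARF6 was lower than ARF8 in ARR1_BA3d and ARR1∆DDK and higher in the others. ARF5 (AT1G19850, MONOPTEROS), the activator of embryonic root and vascular patterning, was bound in 3 lists at 16.1 to 21.1, close to the minimum score.

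ARF10, ARF16 and ARF17 are the targets of miR160. ARF16 (AT4G30080) scored 21.1 in the etiolated list, 24.1 in ARR1_BA, 29.7 in ARR1_BA3d, 40.7 in ARR1∆DDK, 32.0 in ARR10_m, 40.5 in ARR10_BA, 32.9 in the list labelled ARR12_m and 60.5 in ARR14_BA3d. It was bound in 8 lists, yet its rank was 93.5% in the etiolated list and 8.11% in ARR10_m. ARF10 (AT2G28350) scored 15.3 in ARR1_BA, 31.2 in ARR1_BA3d, 12.5 in ARR10_m, 17.8 in ARR10_BA, 27.2 in the list labelled ARR12_m and 63.6 in ARR14_BA3d, and ARF17 was bound in ARR1∆DDK (41.2) and ARR14_BA3d only. Of the repressor ARFs, ARF2 (AT5G62000), a regulator of organ size and senescence, was bound most often. It scored 32.2 in the etiolated list, 45.9 in ARR1_BA3d, 33.4 in ARR10_m, 22.3 in ARR10_BA, 32.9 in the list labelled ARR12_m and 8.99 in that labelled ARR12_BA.

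Activator and repressor ARFs differed in their counts. The 5 activators ARF5, ARF6, ARF7, ARF8 and ARF19 were bound in 27 of 50 pairs of a gene and a list (54.0%), and the miR160 class in 14 of 30 (46.7%). The activators were uneven, with ARF6 and ARF19 bound in 8 lists each and ARF8 in 6, but ARF5 in 3 and ARF7 in 2. The 7 repressors ARF1, ARF2, ARF3, ARF4, ARF9, ARF11 and ARF18 were bound in 10 of 70 (14.3%), 5 of which came from ARF2. The share of the repressors was below, and those of the other classes above, the 19.6% of all pairs of a protein-coding gene and a list. ARF3 (AT2G33860, ETTIN) was bound only in ARR14_BA3d (29.5), and ARF9 (23.1) and ARF18 (29.3) only in ARR1_BA3d. ARF11 was bound in those same 2 lists, at 23.1 in ARR1_BA3d and 56.0 in ARR14_BA3d. The 3 ARFs silenced through TAS3 small RNAs, ARF2, ARF3 and ARF4, thus ranged from 5 bound lists to none.

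Ranks within a list were set beside those of all protein-coding genes with a peak. In ARR1_BA the 17 Aux/IAA genes with a peak had a median rank of 18.6%, against 45.4% for all genes with a peak, and the 6 ARF genes 29.3%. In ARR1∆DDK the medians were 23.1% for 10 Aux/IAA genes, 46.9% for 5 ARF genes and 48.8% for all genes. In the list labelled ARR12_m the ARF median, 24.6%, was below the Aux/IAA median of 29.3%, with 45.4% for all genes. The opposite held in the etiolated list, where the 5 ARF genes had a median of 80.1% against 48.7% for all genes. ARF2 ranked at 24.9% there, and the other ARF genes from 72.2% (ARF6) to 93.5% (ARF5 and ARF16). The ARF median was also farther from the top than that of all genes in ARR10_m (49.9% against 44.5%), in the list labelled ARR12_BA (55.9% against 47.5%) and in ARR14_BA3d (50.4% against 46.5%).

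The question of the mock and 6-BA comparison is whether cytokinin changes binding at these genes. The scores compared are the highest at a gene in each list, and the 2 peaks may lie at different sites. For ARR1, 7 members had a peak in both ARR1_m and ARR1_BA, and the score was higher in ARR1_BA at all 7. The same was true of 99.6% of all protein-coding genes with a peak in both lists. The lowest score in ARR1_BA was 9.85, and all 7 members but IAA16 scored below that in ARR1_m. The highest IAA16 peaks of the 2 lists lay at different sites, so the count for this pair cannot show whether scores changed. At the upstream IAA16 site alone, both lists had a peak, with a score of 13.8 in ARR1_m and 92.5 in ARR1_BA. From ARR1_BA to ARR1_BA3d the score was higher at 19 of 22 members (88.6% of all genes). IAA17, IAA20 and IAA29 were the exceptions. IAA17 was 22.5 at 4 h, 489 bp upstream of the TSS, and 16.9 at 3 days, 273 bp downstream. IAA20 was 57.4 and 22.0, again at different positions, 2015 and 2433 bp downstream of the TSS. IAA29 was 21.3 and 16.7 at 1 site, with summits 2301 and 2416 bp downstream. IAA28, bound in ARR1_BA at 21.7, had no peak in ARR1_BA3d.

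For ARR10, 27 members had a peak in both lists and the score was higher in ARR10_BA at 23 (79.6% of all genes). The others were IAA4, IAA12, IAA19 and ARF2. ARF2 was 33.4 in ARR10_m, 85 bp downstream of the TSS, and 22.3 in ARR10_BA, 496 bp upstream. IAA4 was lower by 1.37 in ARR10_BA, where its summit lay 1681 bp downstream instead of 9 bp upstream, and IAA12 by 0.31, at 13 instead of 203 bp downstream. Only IAA19, lower by 2.26, had both summits at 1 site, 136 and 132 bp upstream. IAA17 was 13.5 in ARR10_m and 41.1 in ARR10_BA, and in the ARR1 pair it had no peak in ARR1_m and 22.5 in ARR1_BA. By their labels, the ARR12 lists ran against the other pairs: at 0 of 9 members with a peak in both was the score higher in the list labelled ARR12_BA (2.94% of all genes). With the labels exchanged it was higher after 6-BA at all 9. The list labelled ARR12_m starts at 15.3, and all 9 but IAA16 (15.9) scored below that in the list labelled ARR12_BA. The direction at those members was therefore set by the lists.

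**Figure D3:**
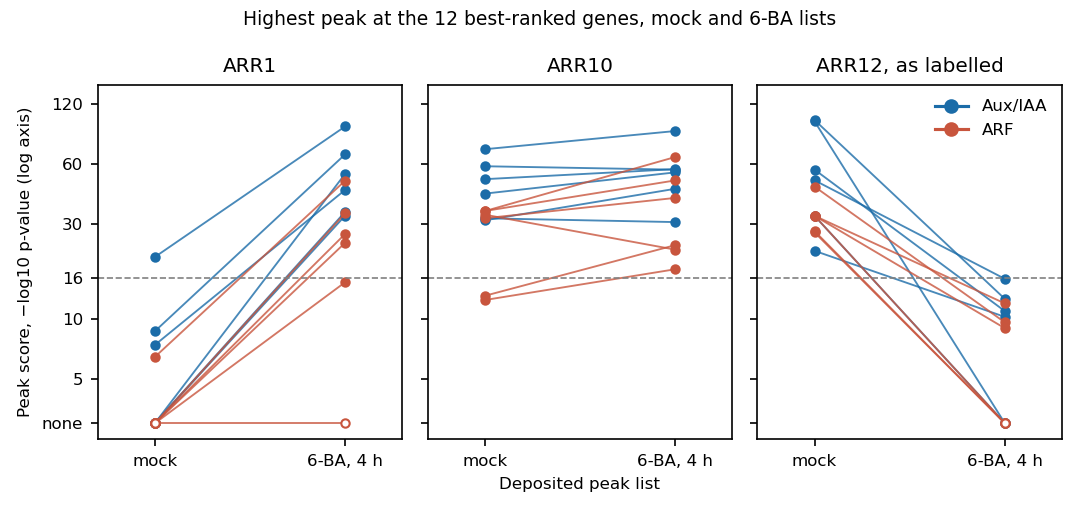
Highest peak score (−log10 p-value, log axis) of the 12 best-ranked members in the mock list and the list after 4 h of 6-BA, for ARR1, ARR10 and ARR12 as labelled, with Aux/IAA genes in blue and ARF genes in red. Open points mark lists with no deposited peak, and the dashed line is the minimum score of 16. The ARR1 lines rise (IAA16 from 20.5 to 92.5, at different sites) except that of ARF2, which had no peak in either list. The ARR10 lines are flatter (IAA19 at 58.4 and 56.1) and the ARR12 lines fall. An open point has no score, so the slope of a line that meets one has no meaning.

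Between the other lists, scores followed the lists as wholes. The etiolated ARR1 mock list was higher than ARR1_m at all 3 members with a peak in both (99.6% of all genes). That was set by the lists, since the etiolated list starts at 20.6 and no member exceeded 20.5 in ARR1_m. The etiolated list alone of the ARR1 mock lists held ARF2, ARF5, ARF6, ARF16 and ARF19 as bound, with IAA2 and IAA34. These are 15.9% of the members, against 6.51% of all protein-coding genes bound only there. ARR14_BA3d was higher than ARR1_BA3d at 26 of 28 members (95.9%), with IAA2 and ARF8 as the exceptions, and 29 of the 41 members with any peak had their highest score in ARR14_BA3d. Since ARR14_BA3d starts at 28.3, members below that in ARR1_BA3d could only be higher in it. ARR10_BA was higher than ARR1_BA at 13 of 22 (69.4%). The members bound in ARR1_BA were all bound in ARR10_BA (87.0% of all genes bound in ARR1_BA). ARR10_BA held 3 more, ARF2, ARF5 and ARF10, or 6.82% of the members against 7.09% of all protein-coding genes. ARF5 and ARF10 scored 16.8 and 17.8 there, close to the minimum.

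ARR1∆DDK, without the receiver domain and under Dex, was higher than ARR1_BA3d at 7 of 14 members (64.0% of all genes). Both lists held 13 members as bound. The 20 members bound only in ARR1_BA3d included IAA2, IAA4 and IAA7, and the 2 bound only in ARR1∆DDK were IAA3 and ARF17. Those are 45.5% and 4.55% of the members, against 26.6% and 1.4% of all protein-coding genes, with 39.5% of all genes bound in ARR1_BA3d and 14.3% in ARR1∆DDK. Since the ARR1∆DDK list starts at a score of 31.2, a member with a weaker peak could not appear in it.

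Some summit positions recurred between lists and others did not. Peaks of score 16 or more at the 39 bound members fell into 77 sites. Of these, 22 sites at 18 members had a deposited peak of any score in 5 lists or more, and 18 sites at 16 members had a peak of score 16 or more in 5 lists or more. The numbers of lists per site below are of peaks of any score, with those of score 16 or more beside them. At those 22 sites the summits of different lists spread over 37 to 389 bp, with a median of 108 bp. Summits within 150 bp of a neighbour were linked into 1 site, so the rule itself keeps that spread narrow. A further 14 of the 77 sites had a peak in 1 list only. Of the 77 sites, 31 were upstream of the gene, 23 downstream of it, 14 in the 5′ UTR, 5 in the 3′ UTR, 3 in coding exons and 1 in a non-coding exon. Within 250 bp of the TSS lay 25 sites.

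At IAA19, the site 131 bp upstream of the TSS had a peak in 8 lists (7 at score 16 or more) within 37 bp, the narrowest spread of the 22 sites. The IAA16 site was 294 bp upstream in 9 lists (7 at score 16 or more). In ARR1_m and in the list labelled ARR12_BA a second site in the IAA16 3′ UTR had the higher score, and in the list labelled ARR12_m the only IAA16 peak was 1076 bp upstream. IAA9 had a peak 43 bp upstream in 9 lists (7), IAA5 134 bp upstream in 6 (5), IAA1 70 bp upstream in 7 (7) and IAA2 159 bp downstream of the TSS in 8 (7).

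Several of these sites lay at the far end of the gene. At ARF19, the site in the 3′ UTR, 5315 bp from the TSS, had a peak of any score in all 10 lists and of score 16 or more in 8, and a further site at the TSS in 7, all of score 16 or more. The 3′ UTR site is 130 bp from the TSS of the next gene, AT1G19210. ARF6 had a peak 906 bp upstream in 9 lists (8 at score 16 or more) and just beyond its end in 6 (6), and ARF8 73 bp upstream in 7 (6). The ARF16 site in 7 lists, all of score 16 or more, was downstream of the gene, 4518 bp from its TSS, and IAA20, IAA29 and IAA34 likewise had a site downstream, 12, 212 and 155 bp from the TSS of another gene. In all, another gene had the nearer TSS at 25 of the 77 sites and at 7 of the 22 with a peak of any score in 5 lists or more. Those calls depend on a rule that lets 1 peak belong to several genes.

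**Figure D4:**
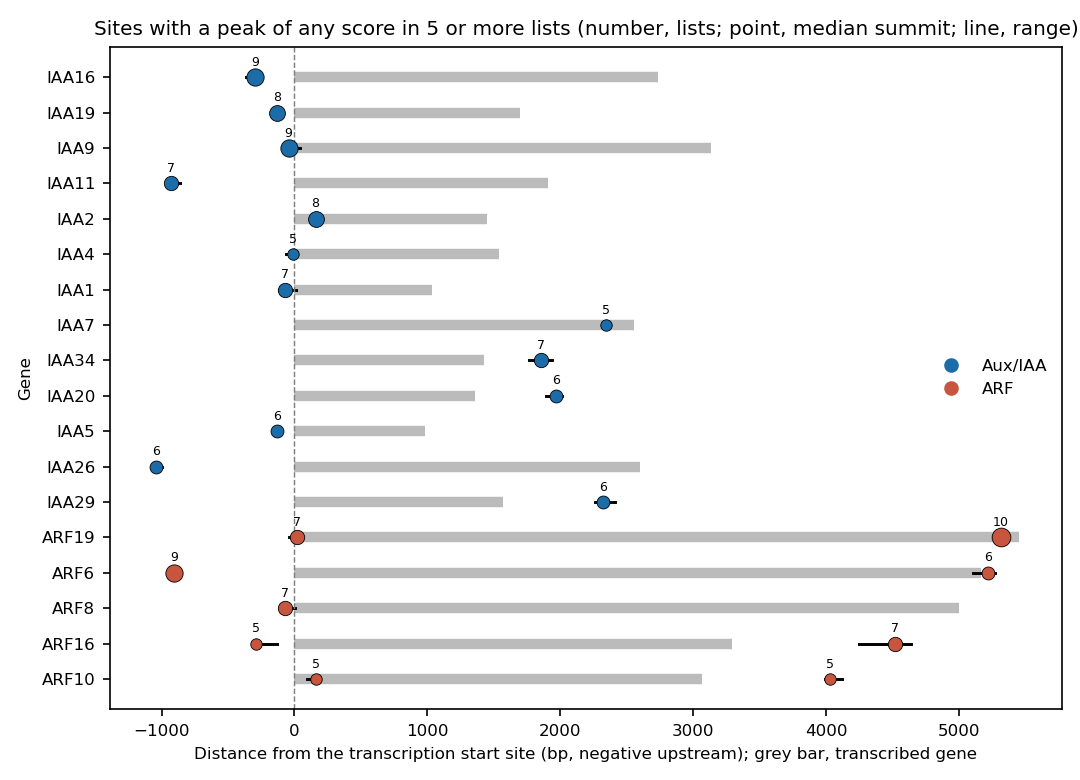
Positions of the 22 sites with a deposited peak of any score in 5 or more lists (horizontal axis, bp from the TSS, negative upstream; vertical axis, the 18 genes). Points are median summits, black lines the range over lists, numbers the lists with a peak at the site, and grey bars the transcribed gene. Of the 13 Aux/IAA sites 6 lie within 250 bp of the TSS, as do 3 of the 9 ARF sites, and IAA7, IAA20, IAA29, IAA34, ARF6, ARF10, ARF16 and ARF19 have a site near or beyond the far end.

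The sequences printed above were searched with the same motifs in 200 bp around every summit of score 16 or more. A B-ARR hexamer was present at 149 of 209 member peaks over all lists (71.3%), against 71.6% of all 44261 peaks. Per list the member share ran from 54.5% in the list labelled ARR12_m (60.7% of all its peaks) to 94.1% in ARR1∆DDK (83.6%), leaving out the single ARR1_m peak. Counting each position once, 36 of 49 Aux/IAA sites and 18 of 28 ARF sites held a hexamer. The IAA16 site, whose sequence is shown above without capitals, held neither motif within 200 bp. The member peaks thus held the hexamer about as often as other peaks.

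TGTCTC, or its complement, was present at 40 of 131 Aux/IAA peaks (30.5%) and 4 of 78 ARF peaks (5.13%), against 13.9% of all peaks. Peaks of different lists at a shared site repeat the same sequence. Counted by site, it was present at 14 of 49 Aux/IAA sites (28.6%) and 4 of 28 ARF sites (14.3%). The IAA19 site held it at 2 positions within the 101 bases shown, beside 1 hexamer. A match is a stretch of letters only, and none of these was tested for binding.

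The partners of both families were counted by the same rule. All 6 TIR1/AFB receptor genes were bound in ARR1_BA3d and ARR14_BA3d, where 39.5% and 43.8% of all protein-coding genes were bound, and 2 to 4 of them in each of the other lists except ARR1_m (3.26% to 24.8% of all genes). ARR1_m, with 0.415%, held none. TIR1 reached 183 in ARR14_BA3d and was bound in 9 lists. Of the 5 TPL/TPR co-repressor genes, at least 4 were bound in 7 of the 10 lists (14.3% to 43.8% of all genes). The etiolated list held 3 (6.68%), the list labelled ARR12_BA 2 (3.26%) and ARR1_m 0 (0.415%). The highest score, 241, was at TPR2 in ARR14_BA3d, whereas TPR4 was bound in 3 lists only. Of 8 small RNA genes, TAS3, the source of the small RNAs that silence ARF2, ARF3 and ARF4, was bound in 8 lists. MIR167A, which acts on ARF6 and ARF8, was bound in 5. Of all protein-coding genes, 4.0% were bound in 8 lists or more and 18.4% in 5 or more. MIR160A, MIR167C and MIR167D were bound in 2 lists each, and MIR160B, MIR160C and MIR167B in none. Of the 8 further ARF genes, ARF12 to ARF15 and ARF20 to ARF23, only ARF21 had a peak, at 42.0 in ARR14_BA3d.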

How the data were processed

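Peak lists were deposited by the authors for 10 of the 14 samples, as BED files with 10 columns. Per the study's methods and the submitters' processing notes, reads were mapped uniquely to TAIR10 with Bowtie 0.12.7, peaks were called against input with MACS2 2.0.10, and replicates were combined by irreproducible discovery rate. The deposited values used were the −log10 p-value (peak score), the fold enrichment ratio over control, and the summit. The deposited integer score, 10 times the −log10 p-value, was not used. The 2 control samples and 2 RNA-seq records were not used here.

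Genes were taken from the RefSeq annotation of TAIR10.1, whose nuclear coordinates are those of TAIR10, and 0 summits lay past a chromosome end. A summit counted for every gene it lay inside or within 1.5 kb of, with a score of at least 16. Rank percent was 100 times the rank among all deposited peaks of the list. Summits linked by 150 bp or less formed a site. Values in every list were given for the 6 members of each family with the lowest median rank percent (no peak counted as 100). Members bound in 0 lists or in 1 were named, and the rest summarised. Members, lists of partner genes and clades were chosen with earlier results of these data known. Each condition had 1 list, so no test was made and precision could not be estimated; depth was unknown. Assignment and motif search were checked on simulated summits. Alternatives covered the minimum score, the assignment rule, list length, exchange of ARR12 labels, ranking and motif window. Python 3.11.15, pandas 2.3.3, NumPy 2.4.6 and Matplotlib 3.10.9 were used.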

Additional observations from a re-analysis of the deposited data

Results flagged for a closer look

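The number of bound members after 4 h of 6-BA minus that in mock was 19 for ARR1 and 8 for ARR10, but −18 for ARR12 by the labels. Over the same pairs of lists, the share of all protein-coding genes bound went from 0.415% to 20.4%, from 19.0% to 24.8% and from 24.2% to 3.26%. The ARR1_m list held far fewer bound genes than the study counts as ARR1 mock targets, so the ARR1 difference carries that doubt. The ARR12 value runs opposite to the other pairs of lists, and the difference was not tested, since each condition is a single list. With the ARR12 labels exchanged it has the sign of the others.

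For the IAA19 peak score, ARR10_BA minus ARR10_m was −2.26, whereas ARR1_BA minus ARR1_m was 58.3. Over all protein-coding genes with a peak in both lists, the median ratio of 6-BA to mock score was 4.11 for ARR1 and 1.35 for ARR10. The lists as wholes thus differed in the same way. This difference between the lists labelled ARR10 and ARR1 was not tested either.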

How the results depend on the processing

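Calls followed the minimum score and the length of the lists. With every deposited peak, the members with a peak were 9 in ARR1_m, 35 in ARR10_m and 12 in the list labelled ARR12_BA, from 1, 15 and 0. With a minimum score of 30 they were 0 in ARR1_m, 2 in the etiolated ARR1 mock list, 10 in the list labelled ARR12_m, 11 in ARR1_BA, 13 in ARR10_BA and 19 in ARR1_BA3d, from 1, 8, 18, 20, 23 and 33. The shares of all protein-coding genes, in the same order, were 0.0692%, 2.15%, 8.74%, 8.05%, 11.2% and 21.0%. With 1513 peaks from every list, they were 7 in ARR1_m, 11 in ARR1_BA, 13 in ARR1_BA3d, 9 in ARR1∆DDK, 11 in ARR10_BA, 10 in the list labelled ARR12_m, 5 in that labelled ARR12_BA and 9 in ARR14_BA3d, and 21 in any list, from 39. Giving each peak to its nearest gene left 5 in the etiolated list, 13 in ARR1_BA and 21 in ARR1_BA3d (4.23%, 12.6% and 24.3% of all genes), and the TSS rule left 0 in ARR1_m (0.233%). Exchange of the ARR12 lists gave 0 for mock and 18 for 6-BA. A 100 bp window lowered the share of member peaks with a hexamer from 71.3% to 49.3% (all peaks, 51.2%). The other counts of bound members stayed within 1.5 times of those reported under these alternatives, as did all of them with summits within 1 kb or with any base of the peak. Ranked by fold enrichment, 56 of 95 ranks of the 12 best-ranked members came nearer the top and 37 farther from it, by a median of 1.8 and at most 26.2 percentage points. Ranked among bound protein-coding genes, 76 of 82 ranks came farther from the top, by a median of 3.0 and at most 49.8. No paired analysis was possible because replicates had been merged into 1 list per condition. Depth was unknown, and a member without a peak may lie below what a list could show.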
